A study of Rattus norvegicus with 18 samples.

Results

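CpGs at the Grm4 locus were described in DNA from the striata of rats with a lesion of the dopaminergic input of one side, by reduced representation bisulfite sequencing (RRBS), which cuts the genome with the enzyme MspI, converts unmethylated cytosines and so reads methylation at single CpGs. The locus was taken as chr20:6907893-7002959 of the rn6 build, which is 95067 bases long and holds 2 intronic Grm4 CpGs, 6932893 and 6977959, with 25 kb on either side. These 2 CpGs are called the listed sites: they were selected on the measured difference between L-DOPA-treated and untreated striata, so their treatment levels are given below as a description without a test. Of 1451601 CpGs with 10 or more reads on a cytosine in at least 1 striatum, 306 lay in the window, and each is named here by the position of its plus-strand cytosine on chromosome 20. Both strands of a CpG were read for 71 of the 306, the plus strand alone for 110 and the minus strand alone for 125, and 50 CpGs were present in all 18 striata. In all, 508 CpGs of the window had at least 1 read. The 9 CpGs whose best covered cytosine reached exactly 10 reads were methylated in 75.5% of their reads, and the 9 that stopped at 9 reads, and so were left out, in 50.9%.

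Grm4 encodes the metabotropic glutamate receptor mGlu4, a group III receptor that couples to inhibitory G proteins, lowers cyclic AMP and sits mostly on axon terminals, where it dampens transmitter release. In the striatum it is known from terminals of cortical glutamatergic fibres and of the striatal neurons that project to the globus pallidus, the indirect pathway of movement control, and it has been followed as a drug target in Parkinson's disease. Methylation of a CpG is usually carried by the cytosines of both strands alike, since the methyltransferase that follows replication copies the mark from the old strand to the new. In the RefSeq gene table of the GRCr8 build, used here for names and order only, Grm4 lies between the non-coding genes LOC120098856 and LOC120098859, and Hmga1, a chromatin protein gene, follows the latter.

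All 9 animals were juvenile male Wistar rats with a unilateral 6-OHDA injection into the left medial forebrain bundle at postnatal day (PND) 21, which removes the dopaminergic input of that side, so that every group, UNT included, carried the lesion. From PND 35 to 49, 3 rats received saline (UNT), 3 received L-DOPA methyl ester with benserazide, a blocker of its conversion outside the brain (L-DOPA), and 3 received the same with Riluzole, a modulator of glutamate transmission, dissolved in Tween (L-DOPA + R). A last dose was given at PND 53, and the contralateral (control) and ipsilateral (lesioned) striatum of each rat were taken. The treated groups differ from UNT by L-DOPA and benserazide together, and L-DOPA + R differs from L-DOPA by Riluzole and its Tween vehicle. A whole striatum mixes neurons, glia and vessels, and a change of methylation within a cell type and a change in the mix of cells cannot be told apart. The files hold no expression, so the tissue was not checked against marker genes.

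The depth differed between the groups. The libraries held 30288745 to 49113957 CpG calls per UNT striatum, 18471279 to 30764504 per L-DOPA striatum and 19383285 to 25846139 per L-DOPA + R striatum, and 180 to 250, 100 to 181 and 111 to 164 window CpGs were kept in each. The distance at which reads ended differed too. Over the genome, the reads at cytosines lying 50 bases 3′ of a cytosine read on their own strand, relative to those lying 49 bases 3′, stood at 0.497 in UNT and near 1 after treatment, at 0.999 in L-DOPA against 1.00 in L-DOPA + R. The step from 50 to 51 bases was 1.06 in UNT and 0.488 and 0.522 in the treated groups, in the same order. Reads of the treated groups thus went 1 base further than those of UNT, in all comparisons of a treated group with UNT below, and treatment and read end cannot be told apart at cytosines that lie at this distance.

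The listed site 6977959 was almost fully methylated in UNT and carried about as many unmethylated as methylated reads after either treatment. With strands merged, the level was 95.3% ± 1.96 (SD, n = 3 rats) in UNT, 45.2% ± 12.2 (n = 3) in L-DOPA and 54.6% ± 4.83 (n = 3) under L-DOPA + R. The summed reads of L-DOPA were 47.1 percentage points below those of UNT, and those of L-DOPA + R 40.5 points below. Both treated groups lay far below UNT in every rat. The summed reads of L-DOPA + R lay 6.60 points above those of L-DOPA. This difference was -3 points in the control and 17.3 in the lesioned striata, -6.84 points on the minus strand, and 2.61 points without L-DOPA replicate 2. The rats of the 2 treated groups overlapped, with 31.3% to 53.7% in L-DOPA and 50% to 59.6% in L-DOPA + R. The L-DOPA rat at 31.3%, replicate 2, kept the plus strand alone, since its minus strand had 4 and 7 reads. All other treated rats included minus-strand reads, so the merged spread of L-DOPA holds a difference in the strands kept.

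The difference of the treated groups from UNT lay on the plus strand. In UNT the plus-strand cytosine was methylated in 95.5%, 100% and 100% of the reads in the control striata and in 78.9%, 95.7% and 100% in the lesioned striata of replicates 1 to 3, on 11 to 23 reads each. In L-DOPA the same cytosine stood at 48%, 23.1% and 33.3% in the control and 22.7%, 36.8% and 41.2% in the lesioned striata, on 13 to 36 reads. In L-DOPA + R it stood at 9.09%, 31.6% and 35.3% in the control and 50%, 43.8% and 47.4% in the lesioned striata, on 11 to 32 reads. No treated striatum reached the lowest UNT striatum, and the treated groups overlapped each other. The minus-strand cytosine of the same CpG read differently. It was methylated in 91.3% to 100% of the reads in the 5 UNT striata that kept it, 90.0% to 100% in 3 L-DOPA striata and 72.7% to 100% in 4 L-DOPA + R striata. Over rats the plus strand averaged 95.1% ± 6.43 in UNT, 34.4% ± 2.75 in L-DOPA and 38.1% ± 4.28 under L-DOPA + R, and the minus strand 95.9% ± 4.0 (n = 3), 97.5% ± 3.54 (n = 2) and 90.5% ± 8.29 (n = 3). On the plus strand alone the summed reads of L-DOPA and L-DOPA + R lay 59.5 and 55.7 points below UNT. On the minus strand alone L-DOPA lay 0.996 points above UNT and L-DOPA + R 5.84 points below.

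**Figure D1:**
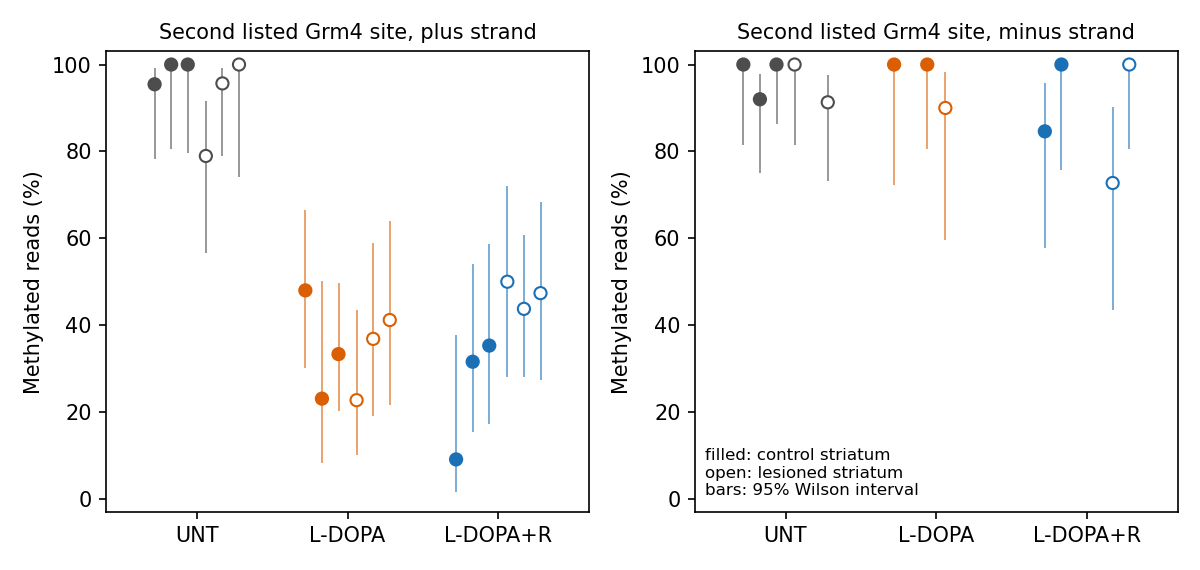
Methylated reads (%, y axis) at the listed site 6977959 by treatment (x axis), plus strand left and minus strand right; each point is a striatum with 10 or more reads, filled for the control and open for the lesioned side, replicates 1 to 3 from left to right within a side, with 95% Wilson intervals of counting error. On the plus strand the treated striata lie between 9.09% and 50% and the UNT striata between 78.9% and 100%, whereas on the minus strand all groups lie at 72.7% or more.

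The plus-strand cytosine of 6977959 lies exactly 50 bases past the plus-strand cytosine of CpG 6977909, at the distance where the read ends of the groups differed. Counting every read without a minimum, UNT had 247 plus-strand reads at CpG 6977953, 6 bases before the site, 106 at the site and 106 at CpG 6977982, 23 bases after it. L-DOPA had 75, 132 and 47 reads at the same 3 positions, and L-DOPA + R had 65, 114 and 42. In UNT the reads at the site thus numbered as many as those after it, and in the treated groups the site had 85 and 72 reads more than the next CpG. The unmethylated reads at the site numbered 6 in UNT, but 86 in L-DOPA and 70 under L-DOPA + R, close to these surpluses. The methylated reads numbered 100, 46 and 44, beside 106, 47 and 42 reads at the next CpG. MspI fragments are filled in with new cytosines at their ends during library preparation, and how far such bases contributed to the reads at the site was not tested.

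The CpG at the other end of that 50-base interval showed the same on the opposite strand. The minus-strand cytosine of 6977909 lies 50 bases past the minus-strand cytosine of 6977959. It was methylated in 100% of 11 kept reads in the only UNT striatum that kept it, in 12.4% ± 4.74 (n = 2 rats, 41 reads in 3 striata) in L-DOPA and in 12.7% ± 7.70 (n = 3 rats, 67 reads in 5 striata) in L-DOPA + R. Without a minimum, UNT had 22 reads there, none unmethylated, L-DOPA 64 with 56 unmethylated, and L-DOPA + R 71 with 63 unmethylated. The next CpG along that strand, 6977892, had 22, 7 and 6 reads, so that the surplus was 0, 57 and 65. On its plus strand, which is not at that distance, CpG 6977909 stood at 91.3% ± 4.56 in UNT, 93.3% ± 11.5 in L-DOPA and 94.2% ± 7.49 under L-DOPA + R (n = 3 each).

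Between the 2 ends, the CpGs were methylated on both strands in every group. There were 11 kept CpGs within 100 bp of 6977959, itself included, from 6977884 to 6978044. On the plus strand, CpGs 6977923, 6977925, 6977946 and 6977953 averaged 95.6% to 98.0% in UNT, 87.3% to 98.8% in L-DOPA and 84.5% to 100% in L-DOPA + R. The lowest of these, 84.5% ± 18.8 (n = 3) at 6977953 in L-DOPA + R, rested on 48 reads. On the minus strand the same 4 CpGs averaged 85.5% to 99.3% in UNT, 95.2% to 100% in L-DOPA and 90.4% to 100% in L-DOPA + R. CpGs 6977982 and 6978006, past the site, averaged 91.1% or more on each strand that was read, in every group. The last CpG, 6978044, was kept on its minus strand at 99.2% ± 1.44 (n = 3) in UNT, 81.5% ± 0.402 (n = 2, 27 reads) in L-DOPA and 100% under L-DOPA + R (n = 2). It did not enter a pooled comparison, having too few treated striata.

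**Figure D2:**
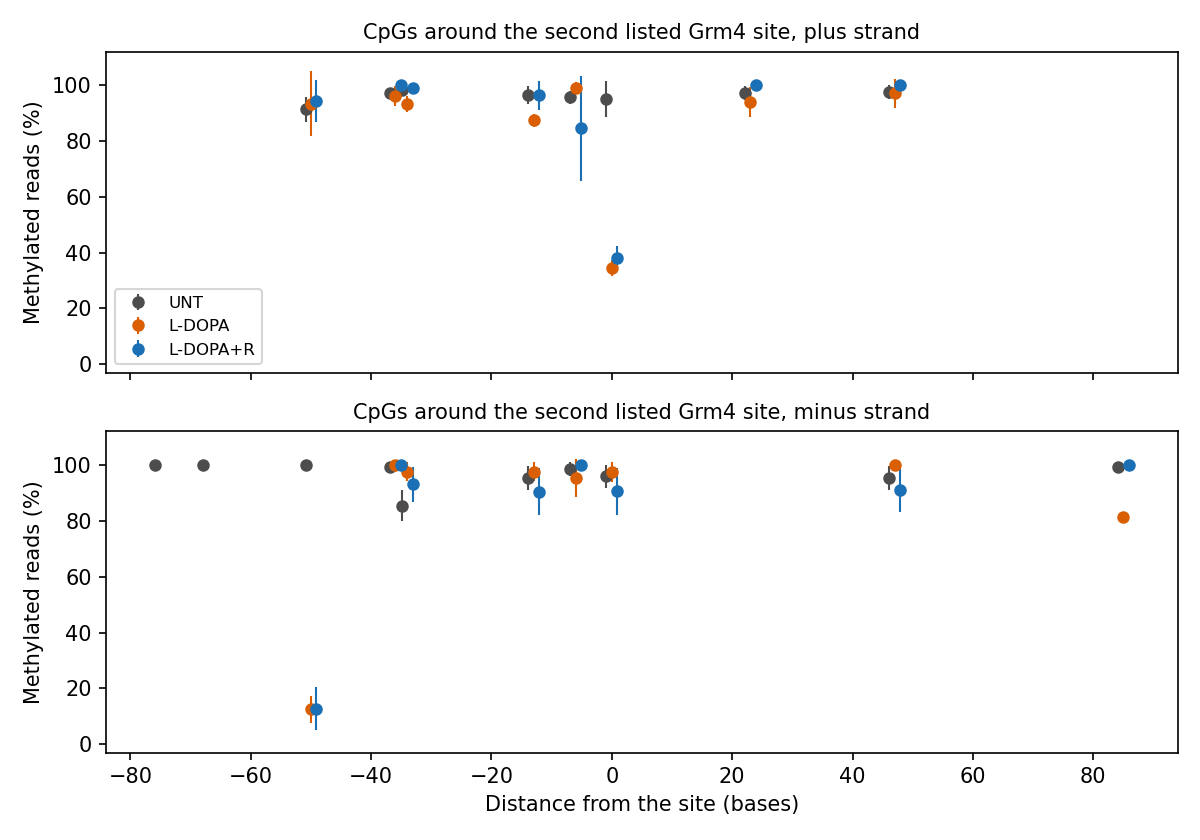
Mean methylated reads (%, y axis, ± SD over the rats that kept the cytosine) at the CpGs within 100 bp of the listed site 6977959 against their distance from it in bases (x axis, groups shifted by less than 1 base), plus strand above and minus strand below. In the treated groups the plus strand of the site itself, at 34.4% and 38.1%, and the minus strand 50 bases before it, at 12.4% and 12.7%, stand apart from the other cytosines, which lie above 80%.

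The listed site 6932893 was of intermediate methylation, was higher in L-DOPA than in UNT and had more reads. It was read on the minus strand alone. In UNT the control striata of replicates 1 to 3 stood at 58.3%, 62.8% and 65.0% and the lesioned striata at 66.8%, 63.5% and 69.6%, on 148 to 247 reads each. In L-DOPA the control striata stood at 80.9%, 79.6% and 69.9% and the lesioned striata at 81.5%, 76.9% and 74.6%, on 52 to 108 reads. In L-DOPA + R they stood at 61.4%, 60.6% and 77.6% and at 69.2%, 73.4% and 68.2%, on 49 to 91 reads. The lowest L-DOPA striatum, at 69.9%, lay just above the highest UNT striatum, at 69.6%, and L-DOPA + R overlapped both groups. Over rats the level was 64.6% ± 2.26 in UNT, 77.2% ± 4.67 in L-DOPA and 68.2% ± 3.06 under L-DOPA + R (n = 3 each). L-DOPA exceeded UNT by 13 points in the summed reads, L-DOPA + R exceeded UNT by 3.48 points, and L-DOPA + R lay 9.48 points below L-DOPA. Since the site was chosen for L-DOPA against UNT, these 3 differences share striata with that choice and no test is given.

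The cytosine of 6932893 lies 39 bases past that of the only other CpG kept within 100 bp, 6932932, and thus not at the distance where the read ends differed. CpG 6932932, on the same strand, stood at 19.6% ± 2.66 in UNT, 19.5% ± 7.22 in L-DOPA and 17.3% ± 6.92 under L-DOPA + R (n = 3 each), on 1186, 532 and 542 reads. Its levels overlapped between the 3 groups, and in each group it stood far below 6932893.

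**Figure D3:**
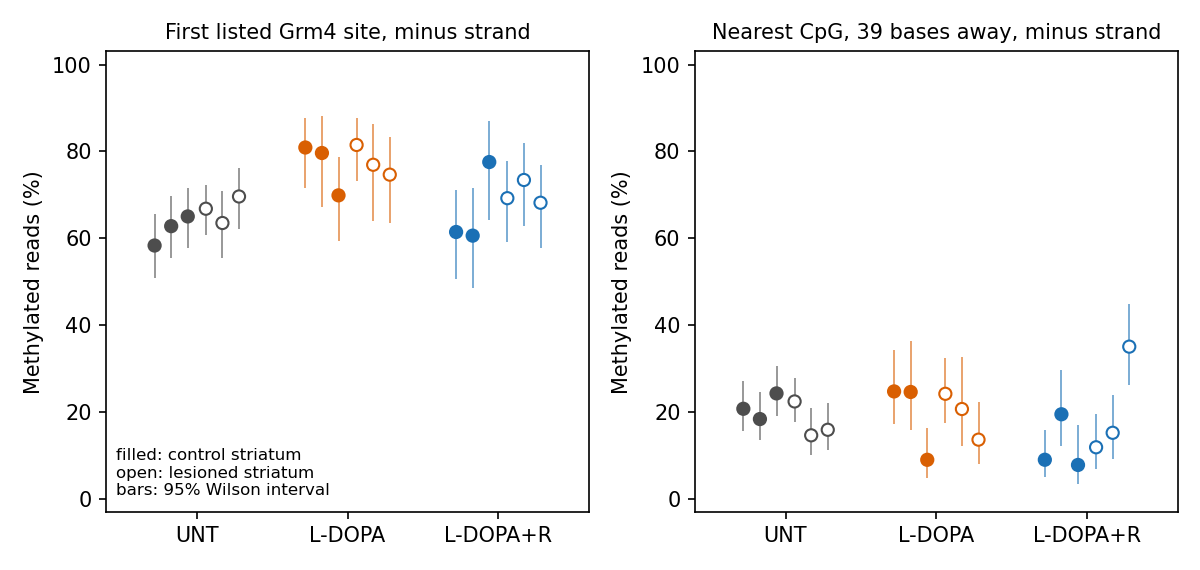
Methylated reads (%, y axis) at the listed site 6932893 (left) and at CpG 6932932, 39 bases from it (right), by treatment (x axis), minus strand; points and 95% Wilson intervals as for the other listed site. The L-DOPA striata of the listed site lie at 69.9% to 81.5%, above the UNT striata at 58.3% to 69.6%, and the neighbouring CpG overlaps between all groups.

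The sides of the brain were compared at the listed sites with tests, since the sites were not chosen on them. In a logistic model of the reads fitted at every CpG of the genome, with false discovery rate q from the Benjamini-Hochberg adjustment, no difference between the lesioned and control striata passed q of 0.01 at either site. Each striatum was a sample in this model, so the pairing of the 2 sides of a rat was not used. At 6932893 the lesioned striata were 4.59 points higher in UNT (q = 0.849), 1.81 points higher in L-DOPA (q = 1) and 5.0 points higher in L-DOPA + R (q = 0.886). At 6977959 they were 5.01 points lower in UNT (q = 0.839), 11.8 points lower in L-DOPA (q = 0.964) and 8.51 points higher in L-DOPA + R (q = 0.948). These values merge strands whose share of the reads differed between the sides. On the plus strand alone the lesioned striata were 7.55 points lower in UNT (q = 0.889), 3.73 points lower in L-DOPA (q = 1) and 18.6 points higher in L-DOPA + R (q = 0.793). Rat by rat, the lesioned side was higher on this strand in every L-DOPA + R rat and in no UNT rat, and the L-DOPA rats went both ways. At 6932893 the lesioned side was higher in every UNT rat, and the rats of each treated group went both ways. No treatment-by-side term, which tests whether a difference between treatments depends on the side, passed the threshold either. The treatment-by-side term at 6977959 was 13.5 points for L-DOPA + R against UNT (q = 0.795), 20.3 points for L-DOPA + R against L-DOPA (q = 0.935) and -6.82 points for L-DOPA against UNT (q = 0.999). On the plus strand alone it was 26.2, 22.3 and 3.82 points in the same order (q = 0.701, 0.858 and 0.998). At 6932893 it lay between -2.78 and 3.20 points (q = 0.998 to 0.999).

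The other CpGs of the window were then compared between treatments, with the 6 striata of a treatment pooled and CpGs required in at least 4 of the 6. Each rat gives 2 of these striata, so the samples are not all independent. In L-DOPA against UNT, 1 of 124 tested window CpGs was called, where 0.351% of all 654563 CpGs tested were called, and 8 of the 124 had an unadjusted p below 0.05, as had 7.37% of all CpGs tested. In L-DOPA + R against UNT, 1 of 107 was called against a background of 0.445% of 643889, and 17 had an unadjusted p below 0.05, beside 9.52% over all. In L-DOPA + R against L-DOPA, 0 of 94 were called by this model and 0 by its F test, with a background of 0.0477%, and 7 had an unadjusted p below 0.05, beside 7.09% over all. With 1 rat left out, the count below 0.05 lay between 5 of 92 and 12 of 96.

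The CpG called in both comparisons with UNT was 6977909, described above. With strands merged it stood at 91.7% ± 4.21 in UNT, 73.3% ± 25.2 in L-DOPA and 50.3% ± 7.89 under L-DOPA + R (n = 3 each). Its rats were at 90.0%, 96.5% and 88.6% in UNT, 50%, 100% and 69.8% in L-DOPA, and 41.2%, 54.4% and 55.3% in L-DOPA + R. The L-DOPA rats spread on both sides of UNT, whereas each L-DOPA + R rat lay below each UNT rat. Which strands were kept differed between these rats: the L-DOPA rat at 100% rested on 10 plus-strand reads of 1 striatum, while the other L-DOPA rats and every L-DOPA + R rat included minus-strand reads, which only 1 UNT striatum kept. The difference was -28.2 points for L-DOPA (q = 0.00848) and -40.5 points for L-DOPA + R (q = 2.37e-14). On the plus strand alone, it was 0.588 points (q = 1) and 2.24 points (q = 1), and once strand entered the model the q values were 0.820 and 0.640. With the 2 striata of a rat added together, the q values were 0.115 and 1.33e-10. Without L-DOPA replicate 1 the difference for L-DOPA was -17.1 points (q = 0.556). In lesioned striata alone it was -15.3 points (q = 0.873) for L-DOPA and -40.0 points for L-DOPA + R (q = 1.39e-06). The call with L-DOPA was thus lost, and that with L-DOPA + R was kept, when the rat was the unit, and neither was kept when the strands were modelled or with the F test (q = 0.665 and 0.0111).

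Called or not, the differences of L-DOPA + R against UNT in the window were more often losses. The share of losses among all CpGs tested was not counted, but of the genome's calls 2327 were lower and 540 higher. Its 107 tested CpGs held 67 with a lower and 38 with a higher level than UNT, with a median difference of -1.17 points beside -0.265 points over all CpGs tested. The median difference was -0.535 points, beside -0.0682 over all, with each strand on its own. It was -0.832, beside -0.306 over all, without cytosines 46 to 50 bases past another. Over 19 alternative settings it lay between -1.89 and -0.535 points. In 14 CpGs (13.1%) each of the 3 L-DOPA + R rats lay below each of the 3 UNT rats, and in 3 (2.80%) above, where 6.76% and 2.58% of all CpGs tested did so. For L-DOPA against UNT, 63 were lower and 55 higher, with 5 (4.03%) and 4 (3.23%) that did not overlap in the rats, beside 5.18% and 3.08% over all. The median difference was -0.10 points beside -0.0061 points over all, and was 0 with each strand on its own. Over 19 alternative settings it lay between -0.672 and 0 points. For L-DOPA + R against L-DOPA, 53 were lower and 37 higher, with 7 (7.45%) and 5 (5.32%) that did not overlap, beside 4.78% and 2.68% over all. The median size of the difference, whatever its sign, was 2.20, 3.01 and 2.63 points in the 3 comparisons, beside 1.79, 1.75 and 1.85 points over all CpGs tested.

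The CpGs with the widest differences among those whose rats did not overlap all had lower levels in the first-named group, and apart from 6977909 none passed the test. In L-DOPA against UNT these were 7000431, from 66.7% ± 1.61 in UNT to 49.9% ± 12.9 in L-DOPA (q = 0.491), 6926455, from 25.8% ± 1.98 to 15.7% ± 6.41 (q = 0.820), and 6989670, from 57.5% ± 2.46 to 48.2% ± 8.10 (q = 0.899). Without L-DOPA replicate 3 the difference of summed reads at 7000431 went from -17.7 to -10 points, and without L-DOPA replicate 1 that at 6989670 went from -9.27 to -4.88 points. At 6989670 the plus strand was kept in UNT alone, at 92.2%, and on the minus strand alone the order was the reverse, with 34.4% of 212 reads methylated in UNT and 48.2% of 85 in L-DOPA. In L-DOPA + R against UNT, CpG 6958482 stood at 36.8% ± 2.76 in UNT and 16.3% ± 5.71 in L-DOPA + R (q = 0.351). CpG 6976364 stood at 76.3% ± 19.4 in UNT and 50.9% ± 3.54 in L-DOPA + R (q = 0.321), and was lower in L-DOPA + R on each strand, at 79.5% against 89.8% in UNT on the plus and 44.7% against 63.4% on the minus strand. Its UNT rats were at 62.1%, 68.5% and 98.4%, and without UNT replicate 3 the difference of summed reads went from -20.1 to -13.4 points and the minus strand of UNT stood at 52.1%. In L-DOPA + R against L-DOPA, CpG 7002320 stood at 35.7% ± 5.25 in L-DOPA and 18.7% ± 7.15 under L-DOPA + R (q = 0.599). CpG 6953040 stood at 46.4% ± 4.42 and 31.1% ± 6.77 (q = 0.590), with UNT at 36.5% ± 4.53. Its plus strand was kept in 2 L-DOPA + R striata, at 0% and 10%, and in no L-DOPA striatum, and on the minus strand alone the summed reads were at 45.6% in L-DOPA and 35.8% after L-DOPA + R. CpG 6931785 stood at 21.2% ± 4.56 and 11.1% ± 1.66 (q = 0.485), with UNT at 22.6% ± 6.67. All of these values are over 3 rats a group.

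No window CpG was called between the lesioned and control striata. In UNT, 0 of 137 tested CpGs were called against a background of 0.00193%, with 7 at an unadjusted p below 0.05, beside 6.45% over all. In L-DOPA it was 0 of 77 against 0.00101%, with 4 below 0.05 beside 5.4%, and in L-DOPA + R 0 of 57 against 0.00176%, with 4 below 0.05 beside 6.29%. With 1 rat left out, the counts below 0.05 reached 16 of 148 in UNT, 11 of 107 in L-DOPA and 6 of 73 in L-DOPA + R. The treatment-by-side term gave 0 of 69 for L-DOPA against UNT, where 0% of all CpGs tested were called and 0 window CpGs had an unadjusted p below 0.05. It gave 0 of 54 for L-DOPA + R against UNT, where 0% of all CpGs were called and 1 window CpG was below 0.05, and 0 of 48 for L-DOPA + R against L-DOPA, where 0.000658% were called and 3 were below 0.05. Over all CpGs tested, 6.05%, 6.44% and 6.12% had an unadjusted p below 0.05 for this term. Without L-DOPA replicate 2, the window count below 0.05 for L-DOPA against UNT was 7 of 94. The F test called 0 window CpGs in each of these 6 comparisons as well. These fits too left the pairing of the sides unused, and with the rats as blocks the count was again 0 in each.

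Along the window, CpGs ranged from near absent to near full methylation. Of the 50 CpGs present in all 18 striata, 24 were below 20% methylation in their summed reads, 12 between 20% and 80%, and 14 above 80%. These shares, 48%, 24% and 28.0%, compare with 39.0%, 24% and 37.0% of such CpGs over the genome and 32.5%, 26.3% and 41.2% over chromosome 20. The members fell into 32 stretches separated by more than 500 bases, and 6 stretches held at least 3 CpGs present in all striata. The least methylated of these 6, from 6929951 to 6931077 with 32 members, averaged 2.97% ± 0.331 in UNT, 3.89% ± 0.594 in L-DOPA and 2.54% ± 0.841 under L-DOPA + R over its 14 CpGs in all striata (n = 3 rats each). The next, from 6931728 to 6932124, next to the listed site 6932893, averaged 18.8% ± 1.44 in UNT, 14.2% ± 4.29 in L-DOPA and 11.4% ± 1.76 under L-DOPA + R over 4 CpGs. The stretch from 6926227 to 6927027 was at 25.1% ± 1.12, 25.4% ± 0.807 and 23.7% ± 2.83. The other 3 stretches, at 6918719, 6963982 and 6983087, averaged 90.4% to 97.0% in UNT, 92.4% to 97.4% in L-DOPA and 89.7% to 95.1% in L-DOPA + R. Of the 6 stretches, every L-DOPA rat lay above every UNT rat in 2 and below in 0, where this held for 4.04% and 8.99% of the 37094 stretches of the genome made in the same way. These were the stretch from 6929951, at 3.43% to 4.56% against 2.64% to 3.30%, and that from 6963982, at 92.0% to 93.1% against 89.9% to 91.4%. Every L-DOPA + R rat lay below every UNT rat in 1 stretch, that from 6931728, at 9.73% to 13.2% against 17.4% to 20.3%, and above in 0, beside 14.2% and 2.72% of the genome's stretches. Against L-DOPA, the L-DOPA + R rats all lay below in 2 stretches, from 6963982 and 6983087, and above in 0, beside 8.67% and 3.27%. No test was made on stretches.

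**Figure D4:**
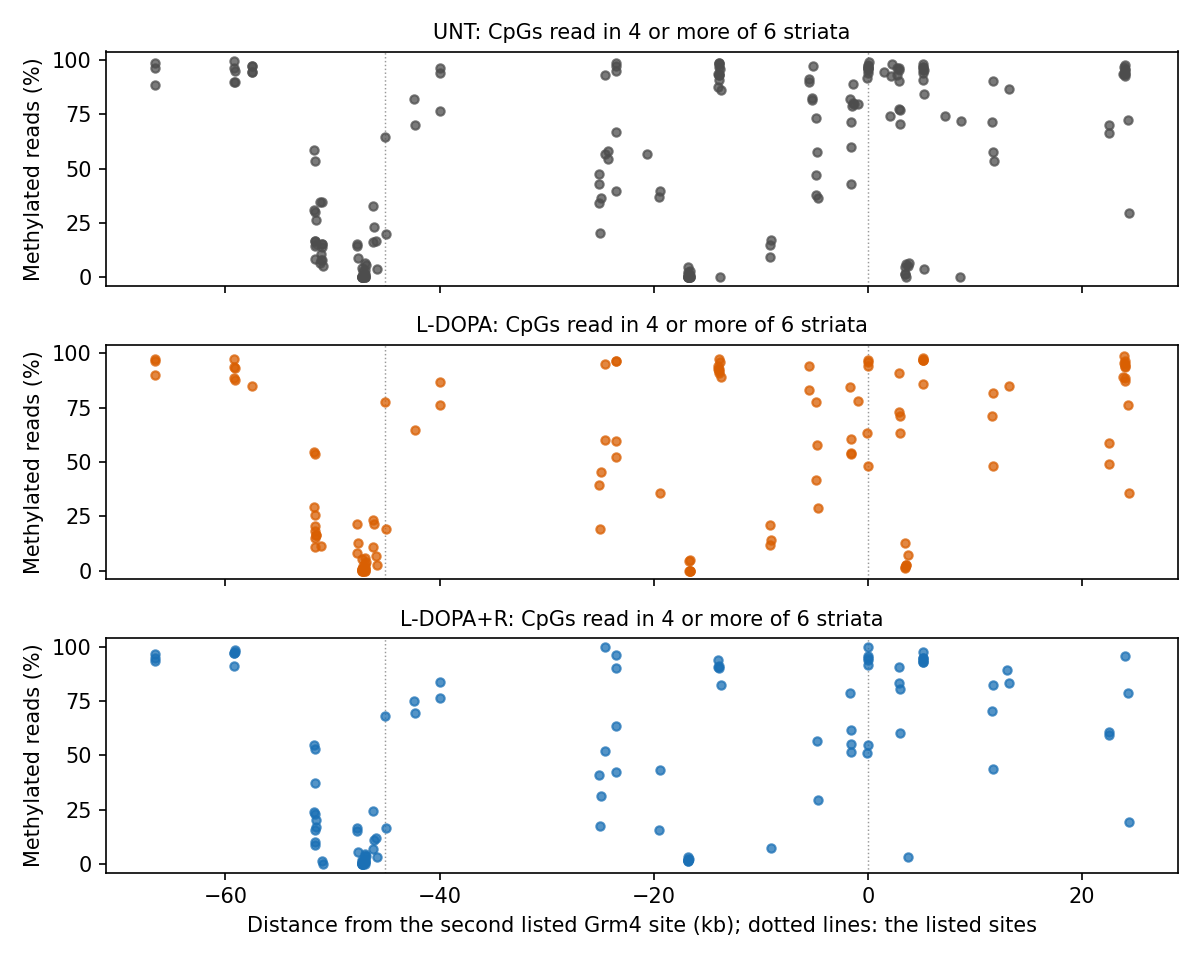
Methylation (%, y axis, summed reads of a treatment, strands merged) of the window CpGs kept in 4 or more of the 6 striata, against the distance from the listed site 6977959 in kb (x axis), one panel per treatment; dotted lines mark the listed sites. Nearly unmethylated groups of CpGs, the largest close to the listed site 6932893, and methylated ones lie at the same places in all 3 treatments.

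The mean over the 50 CpGs present in all striata was 44.2% ± 0.771 in the UNT rats, 42.7% ± 0.594 in the L-DOPA rats and 40.7% ± 0.792 in the L-DOPA + R rats (n = 3 each). The 3 UNT rats lay at 43.5% to 45.0%, the L-DOPA rats at 42.2% to 43.4% and the L-DOPA + R rats at 39.9% to 41.4%, so the groups did not overlap. These CpGs include the listed sites, which were chosen on L-DOPA against UNT, and cytosines that lie 46 to 50 bases 3′ of another on their strand. Without the listed sites, the UNT rats lay at 42.1% to 43.5%, the L-DOPA rats at 41.4% to 42.4% and the L-DOPA + R rats at 39.1% to 40.4% over 48 CpGs, so that L-DOPA overlapped UNT and L-DOPA + R lay below both. With the listed sites kept and the cytosines at 46 to 50 bases left out, 42 CpGs gave 42.8% to 43.7%, 42.5% to 43.3% and 40.9% to 41.9%, with the same overlap. With both left out, 41 CpGs gave 42.3% to 43.1%, 41.8% to 42.5% and 40.3% to 41.2%, again with the same overlap. With at least 20 reads per cytosine, 17 CpGs remained, at 17.3% to 18.1%, 17.7% to 19.3% and 16.3% to 17.5%, and both treated groups overlapped UNT. Such a mean was not made for other windows of the genome. Over the genome's stretches, every L-DOPA + R rat lay below every UNT rat in 14.2% and above in 2.72%.

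The strands were compared across the window where each strand had 30 or more kept reads from 3 or more striata of a treatment. They differed by 30 points or more in 5 of 51 such CpGs in UNT (9.80%), 5 of 36 in L-DOPA (13.9%) and 5 of 35 under L-DOPA + R (14.3%), beside 2.30%, 2.71% and 2.45% over the genome. All of these had a strand whose cytosine lay 46 to 50 bases 3′ of another cytosine on it. Among CpGs with neither strand at that distance, 0 of 31, 0 of 22 and 0 of 20 differed so, beside 0.211%, 0.186% and 0.240% over the genome. The distance at which the genome's strands parted was not the same in all groups. CpGs with a strand at exactly 50 bases differed in 0.265% of cases in UNT but in 13% and 11% of cases in L-DOPA and L-DOPA + R, and CpGs with a strand at 46 to 49 bases in 8.36%, 6.77% and 5.63%.

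The 8 window CpGs that differed so in at least 1 group formed 4 pairs, each 48 to 50 bases apart, and in each pair the low cytosines were the minus strand of the first CpG and the plus strand of the second. In the pair 6954413 and 6954461, 48 bases apart, those cytosines stood at 40.3% and 16.8% in UNT, 43.2% and 39.0% in L-DOPA, and 31.1% and 30.6% in L-DOPA + R. The opposite strands of the same CpGs stood at 89.1% and 93.4%, 90.6% and 97.6%, and 89.5% and 100%. In the pair 6976364 and 6976413, 49 bases apart, the low cytosines stood at 63.4% and 15.2% in UNT, 47.3% and 26.7% in L-DOPA, and 44.7% and 28.4% in L-DOPA + R. In both pairs these cytosines lay below the opposite strand of their CpG in every group. In the pair 6989670 and 6989718, 48 bases apart, the low cytosines stood at 34.4% and 13.5% in UNT, and the plus strand of 6989718 was not kept in the treated groups. The pair 6977909 and 6977959, 50 bases apart, differed from these: its low cytosines stood at 100% and 94.3% in UNT, 12.2% and 34.8% in L-DOPA, and 11.9% and 38.6% in L-DOPA + R, in summed reads. The 100% in UNT rests on the 11 reads of 1 striatum.

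In all, 15 cytosines of the window lay exactly 50 bases 3′ of another on their strand, and 7 of them were kept in all 3 groups. Only 3 of these 7 were highly methylated in UNT. Of the 3, the plus strand of 6977959 and the minus strand of 6977909 were far lower in both treated groups, and the minus strand of 6983121 was not, at 97.9% in UNT and at 98.3% and 95.8% in the treated groups. The other 4, at 6926296, 6931018, 6961192 and 6961202, were at 5.86% or less in every group, so that a loss could hardly be seen there.

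**Figure D5:**
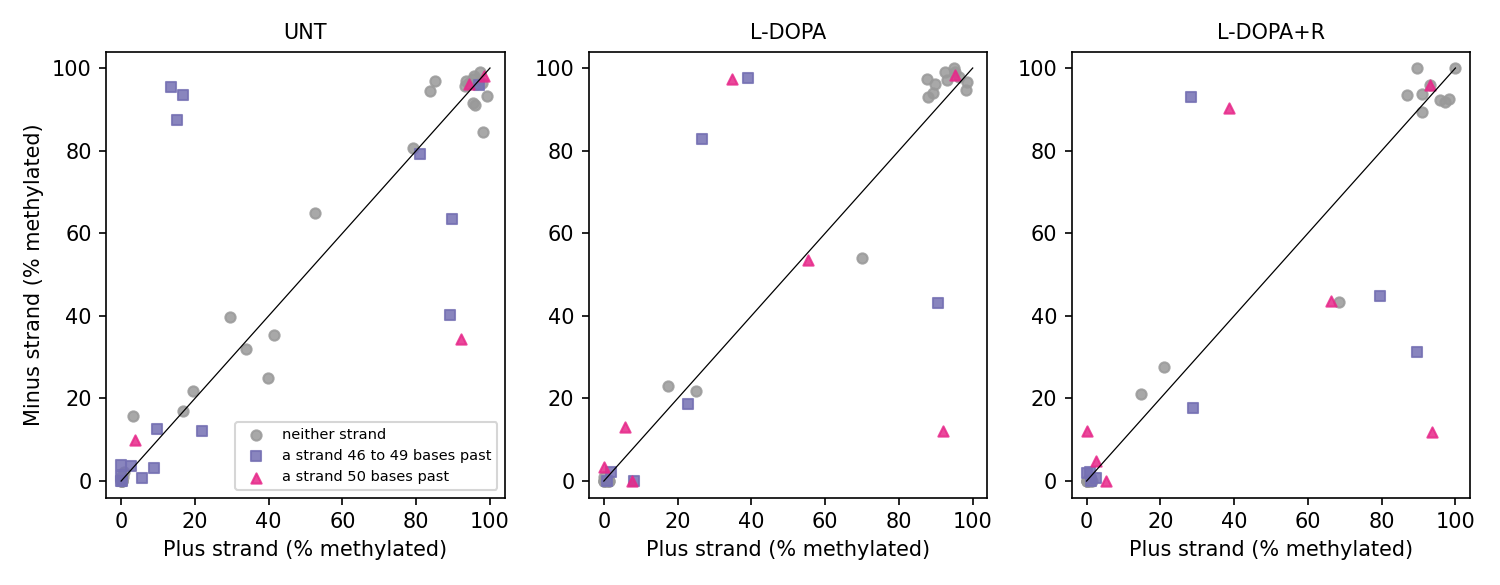
Methylation of the minus strand (%, y axis) against that of the plus strand (%, x axis) for window CpGs with 30 or more reads on each strand from 3 or more striata, one panel per treatment; the line marks equal strands, and symbols mark CpGs with a strand 46 to 49 or exactly 50 bases 3′ of another cytosine on it. CpGs with neither strand at these distances lie near the line, and those far from it, 5 per panel, have a strand at 46 to 50 bases.

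Among the 49 other CpGs present in all 18 striata, those most like each listed site were sought by Pearson correlation of the methylation level over the striata, as a description without p, since the striata share treatment, depth and rat. CpG 6973269 was most like 6977959 (r = 0.612), at 36.7% ± 2.53 in UNT, 28.4% ± 2.02 in L-DOPA and 29.1% ± 4.34 under L-DOPA + R, followed by 6976364 (r = 0.573) and 6931755 (r = 0.526). CpG 6954461 was most like 6932893 (r = 0.554), at 39.7% ± 4.23, 51.1% ± 9.66 and 38.9% ± 14.2, followed by 6930716 (r = 0.494) and 6963982 (r = 0.448). CpGs 6976364 and 6954461 are also among those whose strands differed.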

How the data were processed

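DNA of 18 striata was cut with MspI, bisulfite treated and sequenced as single-end reads by the authors, who trimmed with Trim Galore 0.4.0 in its RRBS mode, which takes 2 bases off 3′ ends, mapped to rn6 with Bismark and called CpGs with methylKit. The deposited files give, per cytosine and strand, the coverage as a count of reads, and the percent of reads that were methylated. Methylated reads were rebuilt from both and lay within 0.048 of a whole number at up to 1000 reads. In the spike-in controls 0.302% to 0.928% of unmethylated and 98.1% to 98.7% of methylated cytosines read as methylated.

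Cytosines with 10 or more reads were kept and the strands added. A logistic model was fitted at each CpG of the genome in Python 3.11.15 with numpy 2.4.6 and scipy 1.17.1, with overdispersion from the Pearson residuals (floor of 1), a chi-square test, Benjamini-Hochberg adjustment over all CpGs tested and a threshold of q = 0.01. The minimum of reads, overdispersion correction, chi-square test, threshold and striata required (4 of 6 for treatments, all 6 for sides) follow the study. Adding the strands, this adjustment and the treatment-by-side term, on CpGs in all 12 striata, were choices made here, and the fits were tested on simulated data. Levels are mean ± SD over rats, reads of both sides of a rat added. Wilson intervals are at 95% and, since reads carry no molecular identifiers, cover counting error only. Samples were grouped by their GEO titles. Striata of 1 treatment with the same replicate number were taken as 1 rat, since both striata of each animal were analysed. Their deviations from the group means correlated at r = 0.0500 to 0.156 in the 9 rats, over 70776 CpGs. Between treatments, which share only a number, r was -0.0355 to 0.0443.

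The CpGs named are the listed sites, every other CpG called, those within 100 bp of a listed site, in each treatment comparison the 3 with the largest difference among those with 1 direction in all 9 pairs of rats, and the 3 most like each listed site. The members, lists and tests were chosen with earlier results of these data known. Positions of rn6 genes were not used here, so the CpGs of the other Grm genes were not counted and no sequence is shown.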

Additional observations from a re-analysis of the deposited data

Results flagged for a closer look

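At the listed site 6977959 the plus strand of the lesioned UNT striatum of replicate 1 stood apart from the other 5 UNT striata, with 78.9% of its 19 reads methylated (95% Wilson interval 56.7% to 91.5%), where the others lay at 95.5% to 100%. The gap was judged by Dixon's 95% critical value, which by its definition marks about 1 of 20 groups of normally distributed values by chance. The minus strand of the same striatum stood at 100%.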

How the results depend on the processing

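The count of other window CpGs called was 1 for L-DOPA against UNT. It was 0 with each strand on its own, the F test, cytosines 50 or 46 to 50 bases past another left out, strand as a term, the rat as the unit or lesioned striata alone. It was also 0 with 20 reads per cytosine, CpGs in all 12 striata or control striata alone, where 6977909 had too few reads or striata to be tested, so that these counts say nothing of its call. It was 2 without the overdispersion correction. Leaving out a rat gave 0 to 1, with 0 without L-DOPA replicate 1 or UNT replicate 1, 2 or 3. For L-DOPA + R against UNT the count of 1 became 0 with each strand on its own, the F test, such cytosines left out or strand as a term, 0 with 20 reads, where 6977909 was again not tested, and 2 without the correction, and leaving out a rat gave 1 to 1. A block for the replicate number left both counts at 1 and changed no other call. Between treatments this number joins different rats, so there it does not account for the 2 striata of each rat.

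At 6977959 L-DOPA minus UNT was -59.9 points with 20 reads, -59.5 on the plus and 0.996 on the minus strand, and -50.7 to -43.1 without a rat. L-DOPA + R minus UNT was -51.1, -55.7 and -5.84 in the same settings, -47.5 in control and -34.0 in lesioned striata, and -42.7 to -38.9 without a rat. The values with 20 reads set unlike strands side by side. UNT kept reads of both strands there and L-DOPA of the plus strand alone. L-DOPA + R kept only the plus strand of the lesioned striatum of replicate 2, on 32 reads. L-DOPA + R minus L-DOPA, 6.60 points as reported, was -6.84 on the minus strand, -3 in control and 17.3 in lesioned striata, and 2.61 to 10.3 without a rat. At 6932893 leaving out a rat gave 10.1 to 15.7, 1.96 to 5.01 and -12.2 to -6.63 points for the 3 comparisons. The difference of the window mean from UNT went from -1.47 points to 0.526 (20 reads), -0.27 (cytosines 46 to 50 bases past left out), -0.753 (listed sites left out) and -0.585 (both left out) for L-DOPA, and from -3.49 to -1.01, -2.01, -2.87 and -2.15 for L-DOPA + R; leaving out the listed sites was chosen after seeing the data. Of 216 values recomputed, 97 were counts of 0 that were again 0 and 9 were levels with the same reads, which say nothing of stability. Of the other 110, 73 stayed within the spread of the rats or the same count and 37 moved.

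Depth limits these results: treated striata held 11 to 36 plus-strand reads at 6977959, and their minus strand often fell below 10 reads. In UNT the minus strand of 6977909 rests on 1 striatum.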
